A study of Rattus norvegicus with 9 samples.

Results

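Unannotated intergenic loci are stretches of transcribed DNA that the study's transcript assembly placed outside every annotated transcript. The loci described here were chosen by 2 properties of the deposited tables. Every assembled transcript of the locus carried the class code u, which the assembly comparison gives to transcripts with no match to the annotation, and the locus averaged at least 1 CPM (counts scaled to the library total) over the 9 brain libraries. Mitochondrial loci, spike-in RNA controls and chromosome 12 from 38 to 40 Mb, the neighbourhood of the deleted Lrap gene, were left out. Of 114601 loci in the count matrix, 66838 carried only the code u, 61895 of them below the level set by the rule, and 4943 were kept. For scale, 12873 loci with a gene symbol reached the same level. Because levels over all 9 rats chose the loci, the levels below are a description. At the edge of the rule, MSTRG.93239 averaged 1.0002 CPM (0.590 to 1.70 over the rats), MSTRG.41430 averaged 1.0004 CPM (0.496 to 1.46) and MSTRG.63657 averaged 1.0006 CPM (0.619 to 1.81). Just outside it stood MSTRG.20540 at 1.0000 CPM (0.534 to 1.64), MSTRG.82147 at 0.9998 CPM (0.370 to 1.58) and MSTRG.87572 at 0.9998 CPM (0.321 to 1.53).

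RNA from unannotated DNA can have several origins in a mammalian brain. Long non-coding RNA genes, exons and ends of known genes that the annotation lacks, and transcripts made at enhancers all appear as such loci. Libraries made from total RNA after removal of ribosomal RNA also keep unspliced and non-polyadenylated transcripts, which polyA selection would lose.

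Whole brains of 9 male rats that had never been given alcohol were sequenced, 3 of each genotype. Charles River supplied the wild-type Wistar rats. The heterozygous (Lrap-/+) and homozygous (Lrap-/-) rats carried 1 or both copies of a 618 bp deletion in Lrap, a long non-coding RNA gene, made with CRISPR/Cas9 and kept as the line Crl:WI-Lrapem1Geh. No group received a treatment, the labels used here give no age, and the mutant rats all descend from a single edited line. The deleted locus itself, MSTRG.24458, read 5.54, 4.93 and 7.25 CPM in the wild-type rats, 5.21, 4.42 and 3.44 in the heterozygous rats and 3.97, 3.19 and 3.47 in the homozygous rats. These values cover the whole locus, of which the deletion removes a part, and counts over the deleted stretch alone were not examined. Heterozygous rat 3 lay within the homozygous range, so the values do not check every label.

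Library totals ran from 27489383 to 46975919 estimated counts. Wild-type rat 2 stood apart from the other 8 libraries in the mitochondrial share and in several marker sums, and other libraries stood apart in other markers. Mitochondrial loci took 40.4% of its counts against 14.8% to 28.1% elsewhere, and it held the highest value of 2855 intergenic loci (57.8%). Its summed hypothalamic markers were 1.95 CPM against 8.41 to 25.7 (6 of 6 markers measured, Hcrt at 0 in this rat alone). Pomc, 1 of these 6, was not low there, at 0.614 CPM against 0.397 to 1.23 elsewhere. Its choroid plexus sum was the highest (589 CPM against 195 to 440) and its striatal sum the lowest (67.3 against 87.7 to 167). Summed cerebellar markers ran from 29.3 to 455 CPM among the wild types, 133 to 169 among the heterozygotes and 51.3 to 270 among the homozygotes. Wild-type rat 3 held the highest of these sums, wild-type rat 2 the lowest, and homozygous rat 2 the 51.3. Summed blood markers (2 of 3 found) ran from 139 to 385, 106 to 151 and 90.1 to 132 CPM. Hbb made up most of each blood sum, while Slc4a1 was highest in wild-type rat 1 (6.12 CPM, against 2.84 in wild-type rat 2). Summed pineal markers (6 of 6 found, with Aanat, Crx and Gngt1 at 0 in some rats) were 112 and 81.6 CPM in heterozygous rats 2 and 3, against 0.344 to 6.28 in the other 7 libraries. Markers of neurons (780 to 1321 CPM summed), astrocytes (454 to 967), oligodendrocytes (2151 to 5252) and microglia (24.3 to 39.5) were present in all 9 libraries. Each of these sums was highest in wild-type rat 3. The ratios among the spike-in controls fell into 2 patterns. Wild-type rats 1 and 3 and the 3 heterozygous rats had the first (mean log2 deviation of 9 lead controls 0.83 to 0.89), and wild-type rat 2 and the 3 homozygous rats the second (-1.01 to -1.14). The second pattern thus coincides with the homozygous genotype except for wild-type rat 2. Its part in the genotype comparisons was not tested beyond the fit given there. In bulk tissue, fewer cells of a type and less RNA per cell cannot be told apart.

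Most of the intergenic loci had a simple structure. A single exon made up 2929 of the 4943 (59.3%), 2 exons 1428 (28.9%), 3 to 5 exons 522 (10.6%), and 6 or more exons 64 (1.29%). A single assembled transcript described 4092 of them (82.8%). Of the loci with a gene symbol and at least 1 CPM, 2.53% had a single exon and 72.8% had 6 or more. The intergenic loci below 1 CPM were simpler still, with 94.0% of a single exon and a median exonic length of 367 bp.

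Exonic length varied widely. Its quartiles were 1314, 5037 and 10166 bp, against a median of 3843 bp for the loci with a symbol, and the range was 200 to 264431 bp. Exonic length below 1 kb was found for 1089 loci, 1 to 5 kb for 1373, 5 to 10 kb for 1220, and over 10 kb for 1261. Median levels over these steps were 1.70, 1.67, 2.14 and 6.97 CPM. On the scale that divides by length (TPM, which sums to the same total in every library), the medians were 3.18, 0.383, 0.169 and 0.232. A threshold in CPM therefore admits long loci at a low density of reads and short loci only at a high one. Over all the intergenic loci the median was 0.347 TPM, against 2.59 TPM for the loci with a symbol.

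**Figure D1:**
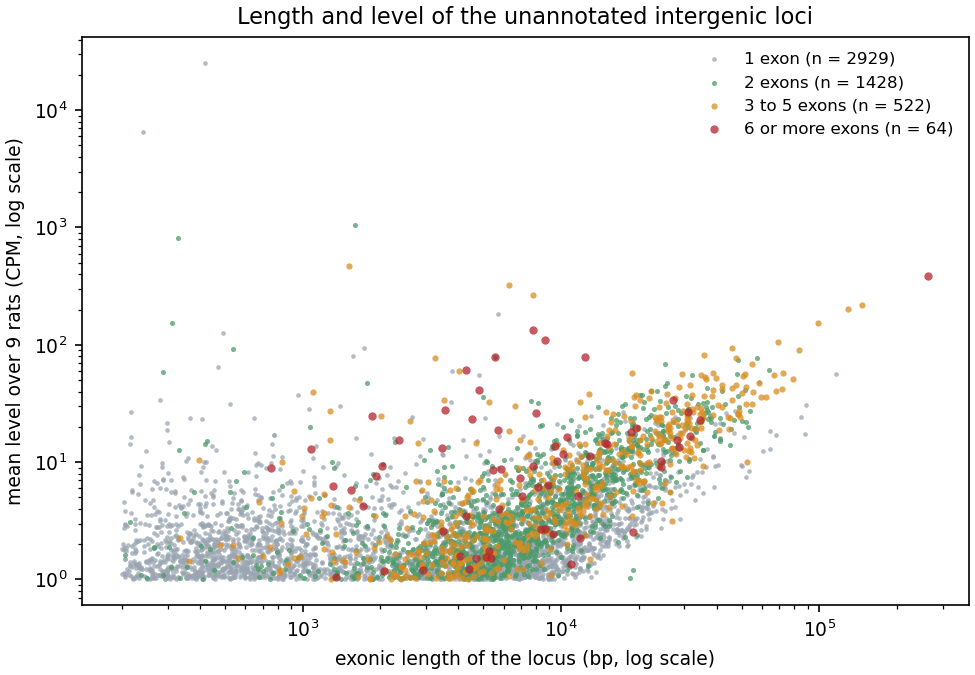
Exonic length in bp (log axis) against mean level over 9 rats in CPM (log axis), with each point 1 intergenic locus coloured by exon number. Most points lie below 5 CPM, and the highest point, a locus of 417 bp, lies at 25435 CPM.

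The locus with the greatest exonic length was MSTRG.26237, on the minus strand of chromosome 13 at chr13:40689399-41174211 (rn6, as are all positions here). Its 11 exons and 27 transcripts covered 264431 bp at 384 CPM and 7.68 TPM. It lies 388618 bp upstream of Dpp10, which encodes an auxiliary subunit of Kv4 potassium channels. MSTRG.4034 (chr1:85678891-85882844) held 146418 exonic bp at 218 CPM, and MSTRG.31252 (chr14:65881465-66021460) held 128654 bp at 202 CPM. MSTRG.1054 was a single exon of 115705 bp on chromosome 1, 35162 bp upstream of Nkain2, at 56.8 CPM. MSTRG.19540 held 98637 exonic bp on chromosome 11 at 153 CPM, 202930 bp upstream of Robo2, an axon guidance receptor.

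Loci of 6 or more exons were the exception, with levels of 1.05 to 384 CPM, a median of 1.42 TPM and a median coefficient of variation (CV, the SD over the 9 rats as a percent of the mean) of 25.6%. Of these 64, 10 (15.6%) lay within 2 kb of a transcript of an annotated gene on their own strand, as did 6.93% of the single-exon loci. Among the 26 with 9 or more exons, 9 did so. The order of genes in the GRCr8 RefSeq assembly, used here for names and neighbours alone, places protein-coding genes in several of the gaps where these loci lie.

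MSTRG.85024 (chr5:155885992-155913752, plus strand) had 41 exons. It read 5.75, 2.15 and 9.91 CPM among the wild types, 8.09, 7.88 and 7.79 among the heterozygotes and 10.5, 7.34 and 6.74 among the homozygotes. It lies 163 bp downstream of AABR07073181.1, overlaps Ldlrad2 on the other strand, and lies between Cela3b and Rap1gap, where GRCr8 lists Hspg2 (perlecan), Ldlrad2 and Usp48 among others. MSTRG.66547 (chr3:63758067-63809644, minus strand) also had 41 exons and averaged 2.25 CPM. It lies between Plekha3 and Ccdc141, where GRCr8 lists Ttn, the gene for the sarcomere protein titin. MSTRG.24276, of 28 exons at 1.52 CPM, lies where GRCr8 lists Dnah10, a gene of a ciliary motor protein, and Atp6v0a2.

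MSTRG.23408 (chr12:16959479-16974894, plus strand) had 31 exons and began 925 bp downstream of Ints1, which encodes a subunit of the Integrator complex. It read 18.7, 6.08 and 22.9 CPM among the wild types, 23.8, 20.6 and 16.2 among the heterozygotes and 25.5, 17.8 and 16.9 among the homozygotes, with the low value in wild-type rat 2. MSTRG.97472, of 19 exons, began 662 bp downstream of Ep300, a histone acetyltransferase gene. It read 29.2, 19.5 and 36.7 CPM among the wild types, 29.9, 31.1 and 20.5 among the heterozygotes and 25.2, 23.5 and 22.1 among the homozygotes, so the groups overlapped. MSTRG.86847, of 15 exons at 27.9 CPM, began 178 bp downstream of Birc6, a ubiquitin ligase gene. MSTRG.97472 and MSTRG.86847 were picked for description after their values were seen.

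Among the loci of many exons with high counts was MSTRG.100317 (chr8:46228038-46287172, minus strand), of 25 exons at 12.3 TPM. It read 118, 94.0 and 210 CPM among the wild types, 137, 153 and 116 among the heterozygotes and 136, 111 and 121 among the homozygotes, and the groups overlapped. GRCr8 lists Mir100hgl, a microRNA host gene, and Sorl1, a neuronal sorting receptor gene, between its neighbours Ubash3b and Sc5d.

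The class code u places the loci outside the annotation, but not outside the study's own assembly. On their own strand, 1056 loci (21.4%) overlapped the span of an assembled transcript of an annotated gene. None (0) overlapped a transcript that matched the annotation in every junction. The code u, by which the loci were chosen, leaves little room for such an overlap. On the other strand 261 (5.28%) overlapped the span of an assembled transcript of an annotated gene. A further 346 (7.0%) lay outside but within 2 kb on their own strand, 179 downstream and 167 upstream of the gene, and 917 (18.6%) within 10 kb. The remainder were remote. For the 3887 loci outside every span, the quartiles of the distance were 11423, 62515 and 219708 bp, and 1577 loci (31.9%) were over 100 kb away. The strands were near even, with 2413 loci on the plus and 2530 on the minus strand. An exon was shared with a locus of the other strand for 796 (16.1%), and the sources used here do not state whether counting used the strand, so these values may mix both strands.

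The loci also ran in series. Joining loci on the same strand with gaps of at most 10 kb gave 3691 groups, of which 3089 were loci alone. The other 1854 loci (37.5%) fell into 602 groups, 78 of them with 5 or more loci and 14 with 10 or more. In the series described below, exons covered 65.2% to 97.9% of the span. The loci of a series lie close together on a strand, so they are not taken as separate observations of a genotype.

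The series with most loci held 18, on the minus strand at chr2:172460204-172702588, and their exons covered 92.7% of its 242385 bp. It fills the gap between Iqcj (95 bp away) and Schip1 (1039 bp away), neighbours on the minus strand that are known to be spliced into a joint transcript as well. Summed over the 18 loci, the level was 146, 207 and 58.3 CPM in the wild-type rats, 151, 86.7 and 55.2 in the heterozygous rats and 67.2, 101 and 48.2 in the homozygous rats. Wild-type rat 2 was highest and homozygous rat 3 lowest, and the groups overlapped. Iqcj itself read 76.6, 120 and 38.2, then 83.6, 48.0 and 30.0, then 39.3, 53.7 and 29.8 CPM in the same order. Schip1, on the far side, read 43.7, 46.7 and 70.9, then 50.4, 59.4 and 44.1, then 47.4, 51.2 and 50.2 CPM. Iqcj thus had its highest value in the rat where the series was highest, and Schip1 did not.

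Those described next held 17 to 10 loci each. The 16 loci of a series on chromosome 13, 227105 bp from Dpp10, summed to 910, 1759 and 403 CPM among the wild types, 1096, 698 and 384 among the heterozygotes and 604, 670 and 362 among the homozygotes. The 14 loci of a series on chromosome 14 that holds Kcnip4, which encodes a Kv channel-interacting protein, summed to 808, 1340 and 677, then 1006, 573 and 417, then 522, 536 and 523 CPM. In both series wild-type rat 2 was highest and the other wild-type rats overlapped the mutants. A series of 17 on chromosome 10 lay 1226 bp from Mir6327 and 64729 bp from Ccl2, a chemokine gene, and another there, of 15, lay 60 bp from Phb-ps1 and 95373 bp from Asic2, an acid-sensing ion channel gene. The 13 loci on chromosome 1 lay 2241 bp from Samd5, and the 10 on chromosome 15 lay 161 bp from Slitrk1, a synaptic adhesion protein gene. Series farther from a gene with a symbol were the 16 on chromosome 11 (368717 bp from Robo2), the 13 and 10 on chromosome 16 (154243 and 669579 bp from Nrg1, whose product binds ErbB receptors, and nearer to Wrn for the second, at 352859 bp), the 11 on chromosome 7 (215967 bp from Cand1) and the 10 on chromosome 1 (481046 bp from Tmem126b).

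By counts, the loci were mostly low. Between 1 and 2 CPM lay 2161 (43.7%), between 2 and 5 CPM 1582 (32.0%), between 5 and 10 CPM 611 (12.4%), between 10 and 100 CPM 572 (11.6%), and above 100 CPM 17 (0.344%). The median was 2.28 CPM, against 13.8 CPM for the loci with a symbol. Averaged within each genotype, 4001 loci (80.9%) reached 1 CPM in all 3 genotypes, 792 (16%) in 2 of them and 150 (3.03%) in only 1. Of the last, 132 reached it among the wild types, 13 among the heterozygotes and 5 among the homozygotes. The rule used these same values, so the tally is no evidence on genotype. Wild-type rat 2, highest at 57.8% of the loci, is also part of the wild-type means.

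The loci with the highest counts were a pair of short single exons. MSTRG.82061 (chr5:91140427-91140843, minus strand, 417 bp) averaged 25435 CPM and 48084 TPM. It read 33336, 14787 and 11530 CPM in the wild-type rats, 14595, 6825 and 46367 in the heterozygous rats and 34601, 30203 and 36671 in the homozygous rats. The homozygous rats were close together, wild-type rat 1 lay among them and the other wild-type rats below, and the heterozygous rats lay on both sides of them. The difference between homozygous and wild-type rats was 1.06 on the log2 scale (SE 0.84), and edgeR's quasi-likelihood test gave an adjusted p of 0.657.

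MSTRG.67946 (chr3:102594630-102594869, plus strand, 240 bp, 14267 bp downstream of the olfactory receptor gene Olr754) averaged 6493 CPM. It read 9127, 1363 and 3036 CPM among the wild types, 4739, 1314 and 10463 among the heterozygotes and 12095, 7483 and 8818 among the homozygotes. Both loci were lowest in heterozygous rat 2, and the groups overlapped.

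The next loci by counts lie together on chromosome 6, on opposite strands. MSTRG.87473 (chr6:30631962-30633846, plus strand) read 694, 510 and 1103 CPM among the wild types, 1550, 1693 and 517 among the heterozygotes and 1731, 842 and 866 among the homozygotes. Its groups overlapped, and the homozygous minus wild-type difference of 0.94 on the log2 scale (SE 0.40) had an edgeR adjusted p of 0.544. MSTRG.87474 (chr6:30632084-30633131, minus strand), whose exons share bases with it, read 694, 1007 and 379 CPM in wild-type and 400, 276 and 2559 in heterozygous rats. In the homozygous rats it read 0.208, 857 and 1199 CPM.

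The near absence from homozygous rat 1 had a counterpart 2387 bp away. MSTRG.87452 (chr6:30629207-30629696, minus strand, 490 bp) read 1146 CPM in that rat and 0 in the other 8. Summed, the 2 minus-strand loci read 694, 1007 and 379 CPM among the wild types, 400, 276 and 2559 among the heterozygotes and 1146, 857 and 1199 among the homozygotes. On the sum, homozygous rat 1 lay within the range of the others. RSEM, the counting tool named in the submitters' notes, divides a read among the loci it matches, and whether these 2 loci share sequence was not tested.

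The share of all counts that fell in the intergenic loci depended on the most abundant 2. It was 7.74%, 6.17% and 4.02% among the wild types, 5.73%, 3.78% and 7.85% among the heterozygotes and 7.01%, 6.60% and 6.62% among the homozygotes, with means of 5.98% ± 1.87, 5.79% ± 2.04 and 6.74% ± 0.228 (SD, n = 3 each). Without MSTRG.82061 and MSTRG.67946 the shares were 3.49%, 4.56% and 2.56%, then 3.79%, 2.97% and 2.17%, then 2.34%, 2.84% and 2.07%. Their means were 3.54% ± 0.997, 2.98% ± 0.812 and 2.41% ± 0.388 (SD, n = 3 each), so the homozygous mean went from the highest to the lowest of the 3. The groups overlapped in both versions.

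Spread between rats of a genotype was wide. The median CV among rats of the same genotype was 34.4% for wild types, 35.7% for heterozygotes and 26.2% for homozygotes (n = 3 each). For the loci with a symbol it was 26.1%, 18.1% and 12.8%. Within each step of level the intergenic median was above that of the loci with a symbol in all 3 genotypes. Between 10 and 100 CPM the medians were 39.5%, 38.7% and 24.4% for the intergenic loci and 25.3%, 18.0% and 11.7% for the loci with a symbol. Between 1 and 2 CPM they were 33.9%, 34.7% and 27% against 31.8%, 20.7% and 19.5%. These medians are a description, with no test.

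**Figure D2:**
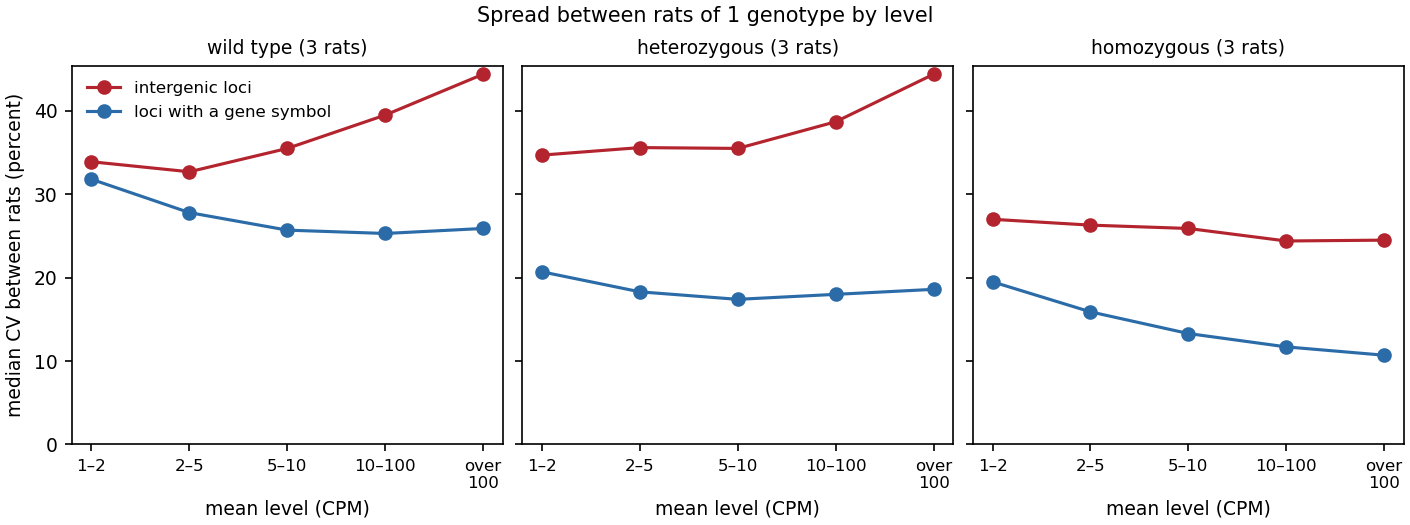
Median coefficient of variation within a genotype in percent, by step of mean level in CPM, for intergenic loci and loci with a gene symbol, with 1 panel per genotype. In the step from 10 to 100 CPM the intergenic medians are 39.5% (wild type), 38.7% (heterozygous) and 24.4% (homozygous), each above that of the loci with a symbol.

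A few intergenic loci held a steady level in all 9 rats. MSTRG.92752 (chr7:12947378-12948852, minus strand, 100 bp upstream of Shc2 on the other strand) read 3.37, 3.04 and 2.99 CPM among the wild types, 3.37, 3.35 and 2.81 among the heterozygotes and 2.51, 3.11 and 2.82 among the homozygotes, a CV of 9.73%. MSTRG.6768 followed with a CV of 11.2% at 6.88 CPM, MSTRG.50653 with 11.6% at 1.35 CPM, 374 bp upstream of Ankrd11 on the other strand, and MSTRG.102322 with 11.6% at 1.12 CPM. MSTRG.40480 on chromosome 16, with 4 exons spread over 525328 bp, had a CV of 12% at 33.6 CPM. At the other end, MSTRG.87452 had a CV of 300%, since a single rat held all its counts.

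All-or-none presence was examined with a locus called absent from a rat at or below 0.1 CPM and present at or above 1 CPM. By that rule 47 of the 4943 loci (0.951%) were present in some rats and absent from others. Of 16499 other loci averaging at least 1 CPM, 49 (0.297%) were. The 2 sets share that floor but were not matched by level. The intergenic median was 2.28 CPM, against 13.8 CPM for the loci with a symbol. A level of 0.1 CPM was exceeded in all 9 rats by 4896 loci (99%), and at least 1 CPM was reached in all 9 by 2969 (60.1%), against 14636 of the other loci (88.7%). A count of 0 allows a level of up to 0.0639 to 0.109 CPM (3 counts of the library) by library, so a locus listed at 0 may still be transcribed below that level. This limit covers counting error only.

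Loci of this kind were short and low. Of the 47, 40 had a single exon, 29 were under 1 kb and 37 were under 2 CPM on average, with a median exonic length of 566 bp. In 32 of them a single rat lacked the locus, in 7 it was 2 rats, in 4 it was 3, in 3 it was 4, and MSTRG.87452 was absent from 8. Absences were found in every genotype. The wild-type rats lacked 4, 10 and 8 of the loci, the heterozygous rats 7, 8 and 9, and the homozygous rats 12, 9 and 11.

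**Figure D3:**
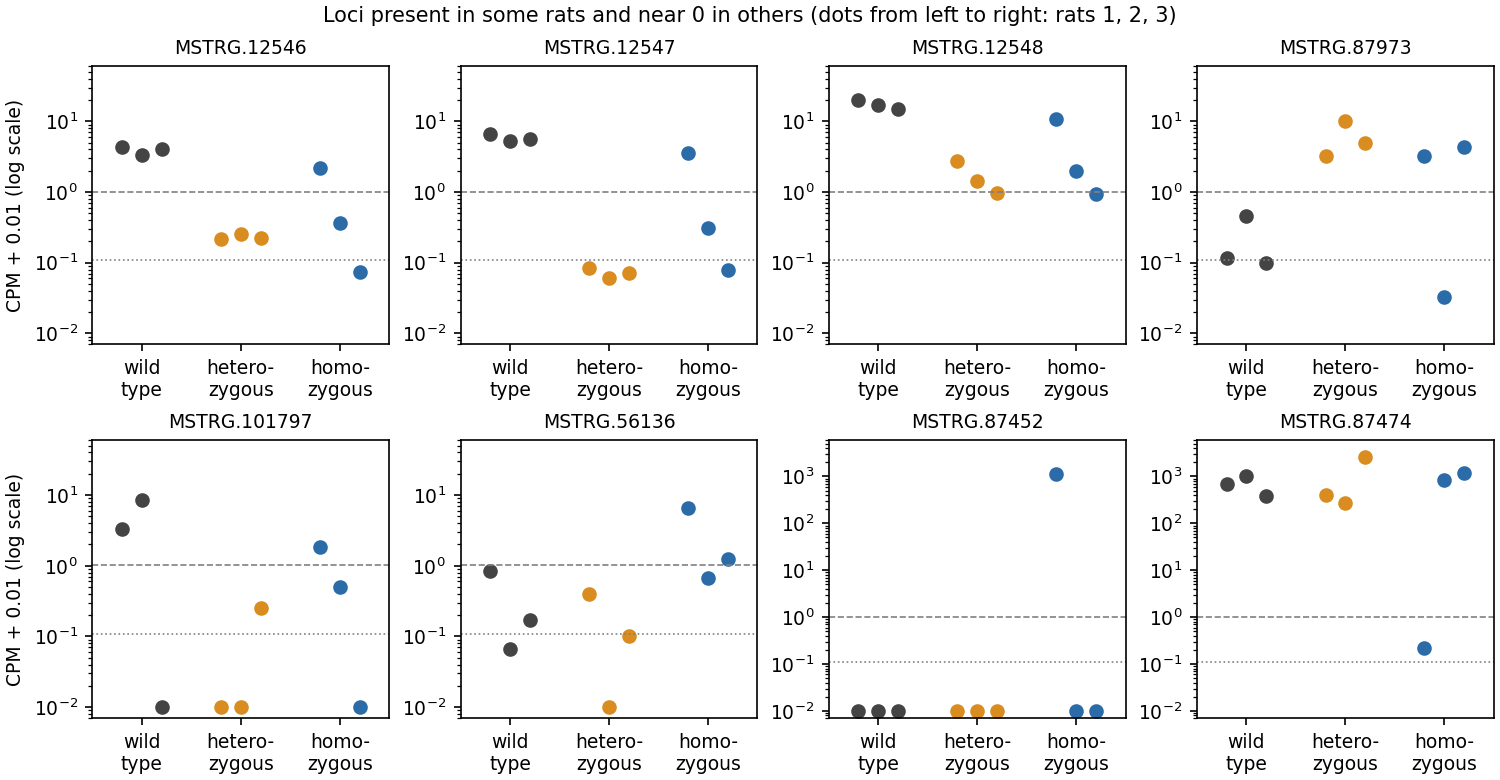
Level of 8 loci in each rat (dots, rats 1, 2 and 3 from left to right in each genotype) as CPM with 0.01 added, on log axes, with a dotted line at 0.1 CPM and a dashed line at 1 CPM. For MSTRG.12547 the 3 heterozygous dots lie below the dotted line and the 3 wild-type dots above the dashed one, while the lone high dot of MSTRG.87452 and the lone low dot of MSTRG.87474 belong to the same homozygous rat.

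By genotype, a single locus was absent from every rat of one genotype and present in every rat of another. MSTRG.12547 (chr1:276036455-276047547, minus strand, 2 exons, 11073 exonic bp) read 6.67, 5.22 and 5.56 CPM in the wild-type rats and 0.0754, 0.0516 and 0.0605 in the heterozygous rats. The homozygous rats did not lie together: they read 3.57, 0.299 and 0.0689 CPM. None (0) of the other 16499 loci averaging at least 1 CPM had such a pattern. The heterozygous values rest on 8 counts in all against 627 in the wild-type rats, a level of 1.06% of wild type (95% exact interval 0.455 to 2.10%, counting error only). The edgeR log2 difference was -6.40 (SE 1.30), with an adjusted p of 0.981.

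Its neighbours on both sides shared the pattern. MSTRG.12546, 51 bp away, read 4.26, 3.35 and 3.99 CPM among the wild types, 0.206, 0.249 and 0.217 among the heterozygotes and 2.19, 0.351 and 0.0628 among the homozygotes. MSTRG.12548, 305 bp away on the other side, read 19.7, 17.2 and 14.8 CPM, then 2.76, 1.42 and 0.961, then 10.8, 1.94 and 0.941. Together they span chr1:276029170-276071909, 42740 bp on the minus strand, and whether they are pieces of a single transcript was not tested.

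Summed over the 3 loci, the level was 30.6, 25.8 and 24.3 CPM among the wild types, 3.04, 1.72 and 1.24 among the heterozygotes and 16.6, 2.60 and 1.07 among the homozygotes (26.9 ± 3.32, 2.00 ± 0.935 and 6.76 ± 8.56, SD, n = 3 each). All 3 wild-type rats were above all 6 mutant rats, and homozygous rat 1 stood between them and the rest. The edgeR adjusted p-values for the heterozygous minus wild-type difference of MSTRG.12546, MSTRG.12547 and MSTRG.12548 were 0.981 each. Without homozygous rat 1 they were 0.00735, 0.000324 and 0.00735, and for homozygous minus wild type 0.0334, 0.0108 and 0.0334. The fit with the heterozygous and wild-type rats alone gave 0.00507, 0.000317 and 0.0129, and over all alternatives the adjusted p of MSTRG.12547 ran from 0.000317 to 1.00. The loci were picked by these same values, and homozygous rat 1 is the rat that departs from the pattern. MSTRG.12546 averaged 3.86, 0.224 and 0.868 CPM by genotype, so it met the level rule through the wild-type rats. The small p-values are thus a description and no separate support.

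A further intergenic locus of the same strand, MSTRG.12545 (chr1:276020343-276022954), below the level set by the rule, had a similar order. It read 0.477, 0.503 and 0.740 CPM in the wild-type rats, 0 in all 3 heterozygous rats and 0.655, 0.0460 and 0 in the homozygous rats, where homozygous rat 1 lay within the wild-type range. Loci farther out on either side had overlapping genotypes. MSTRG.12543, annotated as AABR07007000.1, read 2.78, 1.93 and 3.52 CPM among the wild types, 3.54, 2.27 and 1.30 among the heterozygotes and 2.87, 1.91 and 1.17 among the homozygotes, so its groups overlapped. MSTRG.12552 read 3.37, 1.76 and 2.48, then 2.71, 2.09 and 1.66, then 1.64, 1.96 and 1.09 CPM, also with overlap. The nearest gene with a name, Acsl5, which encodes an enzyme that activates long-chain fatty acids, lies on the other strand, 169981 bp from MSTRG.12548. A difference between the edited line and the purchased Wistar rats elsewhere in the genome cannot be told apart from one of the deletion in these 9 rats.

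MSTRG.87973 (chr6:43123988-43126497, minus strand, 2 exons) went the other way. It read 0.106, 0.447 and 0.0887 CPM in wild-type and 3.19, 10.2 and 4.96 in heterozygous rats, but 3.24, 0.0230 and 4.25 in homozygous rats. Homozygous rat 2 lay below every wild-type rat and the other 5 mutants above them. The heterozygous minus wild-type difference was 4.88 on the log2 scale (SE 1.30), with an edgeR adjusted p of 0.981, and of 0.0450 without homozygous rat 2. That rat is the one that departs from the other mutants, so the last value is no separate support.

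Other loci were absent from single rats. MSTRG.114438 (chrX:156761488-156771116, plus strand, 14 exons, 35511 bp downstream of the kinase gene Irak1) read 6.52, 1.96 and 2.15 CPM among the wild types, 0, 3.58 and 3.43 among the heterozygotes and 8.72, 4.17 and 5.45 among the homozygotes. MSTRG.22969 read 1.23, 0 and 0.985, then 1.18, 4.29 and 1.83, then 3.36, 4.18 and 1.80 CPM. MSTRG.14337 and MSTRG.1129 were absent from homozygous rat 1, MSTRG.111239 and MSTRG.63384 from heterozygous rat 2, and MSTRG.43697 from wild-type rat 2.

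Long loci were among them as well. MSTRG.101797 (chr8:75089951-75100802, plus strand, a single exon of 10852 bp) read 3.31, 8.49 and 0 CPM among the wild types, 0, 0 and 0.240 among the heterozygotes and 1.85, 0.491 and 0 among the homozygotes. The locus before it, MSTRG.101796, read 4.12, 5.66 and 3.79, then 5.29, 3.61 and 1.52, then 1.04, 3.54 and 2.27 CPM. The locus after it, MSTRG.101798, read 5.33, 6.39 and 3.52, then 6.43, 4.01 and 3.13, then 2.55, 4.19 and 2.60 CPM. Both were thus present in every rat, those without MSTRG.101797 included.

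The genotype comparison asked whether the level of these loci differed between the genotype groups. The wild-type rats were purchased and the mutants came from the edited line, so deletion and line cannot be told apart here. In the fit over all 39057 loci that passed the filter, 4942 of the 4943 intergenic loci were tested, and MSTRG.87452 was not. Between homozygous and wild-type rats 0 of them passed an adjusted p of 0.05, and 0% of all loci did so. The smallest edgeR adjusted p was 0.380. At an unadjusted p under 0.05 there were 383 (7.75%), 37 higher and 346 lower, where 9.13% of all loci reached that limit. Between heterozygous and wild-type rats 0 passed (0.00768% of all loci), with a smallest adjusted p of 0.981. An unadjusted p under 0.05 was reached by 187 (3.78%), 24 higher and 163 lower, against 3.72% of all loci. Between homozygous and heterozygous rats 0 passed (0.00256% of all loci), and 42 (0.850%) had an unadjusted p under 0.05, 8 higher and 34 lower, against 1.71% of all loci. For any difference among the 3 genotypes 0 passed (0.0102% of all loci), and 159 (3.22%) had an unadjusted p under 0.05 against 4.49% of all loci. The shares among the intergenic loci thus lay near or below those among all loci.

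These counts at an unadjusted p under 0.05 moved with single libraries. The share over all loci was not computed for these refits, so the counts are not a result about intergenic loci in particular. For homozygous minus wild type they were 125 without wild-type rat 2, 2158 without wild-type rat 3, 181 without homozygous rat 1 and 151 without homozygous rat 3. For heterozygous minus wild type they were 97 without wild-type rat 2, 1421 without wild-type rat 3, and 546, 85 and 74 without heterozygous rats 1, 2 and 3. For homozygous minus heterozygous they were 65 without wild-type rat 2, 95 without wild-type rat 3, 20 without homozygous rat 1 and 97 without homozygous rat 2. For any difference they were 68, 1578 and 364 without wild-type rat 2, wild-type rat 3 and heterozygous rat 1.

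The tools differed by a single locus in 2 of these comparisons. DESeq2 called 1 intergenic locus in homozygous against wild-type rats, MSTRG.33316, where it called 0.0845% of all loci. In heterozygous against wild-type rats it called 1, MSTRG.72922, where it called 0.0461%.

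Without passing the test, most loci had lower fitted values in the mutants. The median log2 difference was -0.36 for homozygous minus wild type (quartiles -0.56 and -0.14, with 84.6% of the loci lower), -0.23 for heterozygous minus wild type (79.3% lower) and -0.11 for homozygous minus heterozygous (70.3% lower). Over all loci tested the medians were -0.07, -0.04 and 0.00. The loci with a symbol had medians of 0.15, 0.08 and 0.08. Loci whose transcripts all lie in introns (3376 tested) had -0.34, -0.20 and -0.12, and intergenic loci below 1 CPM (10839 tested) had -0.32, -0.19 and -0.12. Both classes thus lay close to the intergenic loci above 1 CPM, and no test compared them.

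The medians also moved with length and exon number. They were -0.29, -0.26, -0.38 and -0.45 for homozygous minus wild type over the steps of exonic length, with 75.9%, 77.4%, 89.4% and 95.2% of the loci lower. For 1, 2, 3 to 5, and 6 or more exons they were -0.34, -0.41, -0.36 and -0.11. The 18 loci between Iqcj and Schip1 had a median of -0.70, with all 18 lower, and the 16 nearest Dpp10 had -0.60, with all 16 lower. The 16 nearest Robo2 had -0.74, with 15 lower. The medians of the other series described above ran from -0.29 to -0.67. The first was that of the 17 on chromosome 10, with 16 lower, and the last that of the 13 on chromosome 1. Loci of a series are not separate observations, so these tallies are a description.

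**Figure D4:**
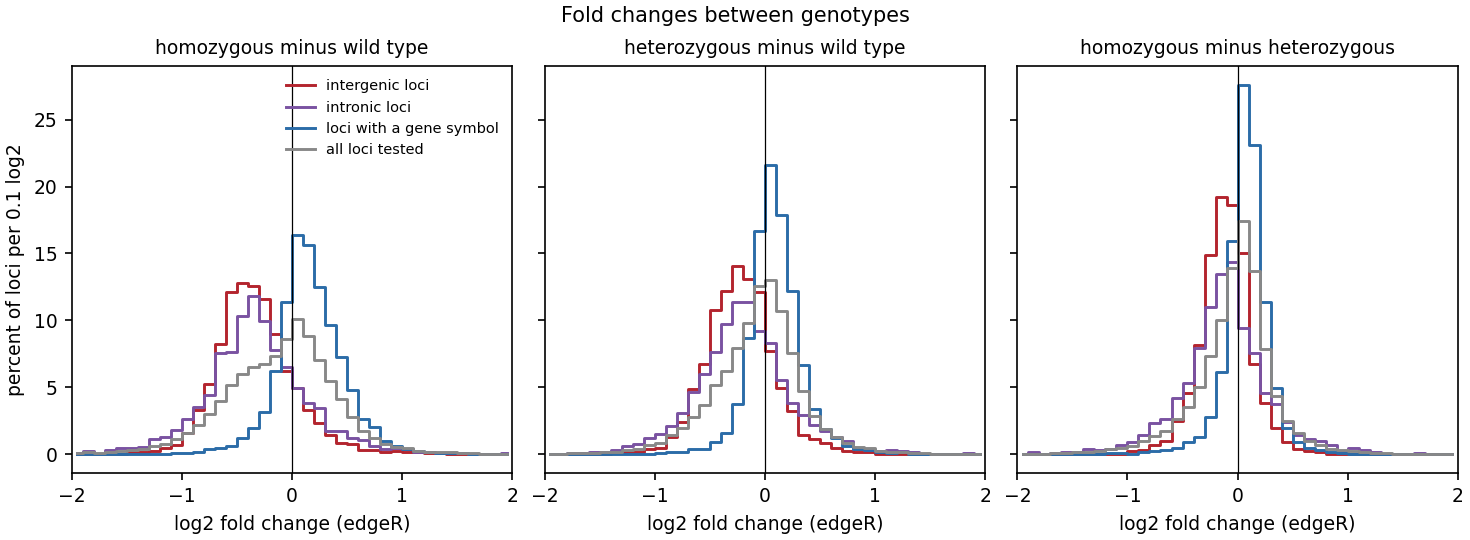
Distribution of edgeR log2 differences between genotypes (x axis, steps of 0.1) as the percent of loci in each step (y axis), for intergenic loci, intronic loci, loci with a gene symbol and all loci tested. The intergenic medians lie at -0.36 (homozygous minus wild type), -0.23 (heterozygous minus wild type) and -0.11 (homozygous minus heterozygous), and those of the loci with a symbol at 0.15, 0.08 and 0.08.

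These medians rested in large part on single libraries. The median level of the loci was 2.76, 3.43 and 2.07 CPM in the wild-type rats, 2.99, 2.30 and 1.58 in the heterozygous rats and 1.67, 2.21 and 1.55 in the homozygous rats, so the groups overlapped. Without wild-type rat 2 the median difference was -0.13 for homozygous and -0.02 for heterozygous minus wild type. Without wild-type rat 3 they were -0.57 and -0.41. The homozygous minus heterozygous median turned to 0.03 without heterozygous rat 1. Intronic loci took 1.77%, 2.39% and 0.967% of the counts outside mitochondrial and the 10 most abundant loci among the wild types, 1.68%, 1.28% and 1.15% among the heterozygotes and 1.10%, 1.43% and 1.05% among the homozygotes. On the same base the intergenic loci took 6.84%, 9.46% and 3.96%, then 6.65%, 5.01% and 5.02%, then 5.04%, 5.52% and 4.45%. Both shares were highest in wild-type rat 2 and lowest in wild-type rat 3. Whether RNA quality or dissection has a part in this was not tested.

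**Figure D5:**
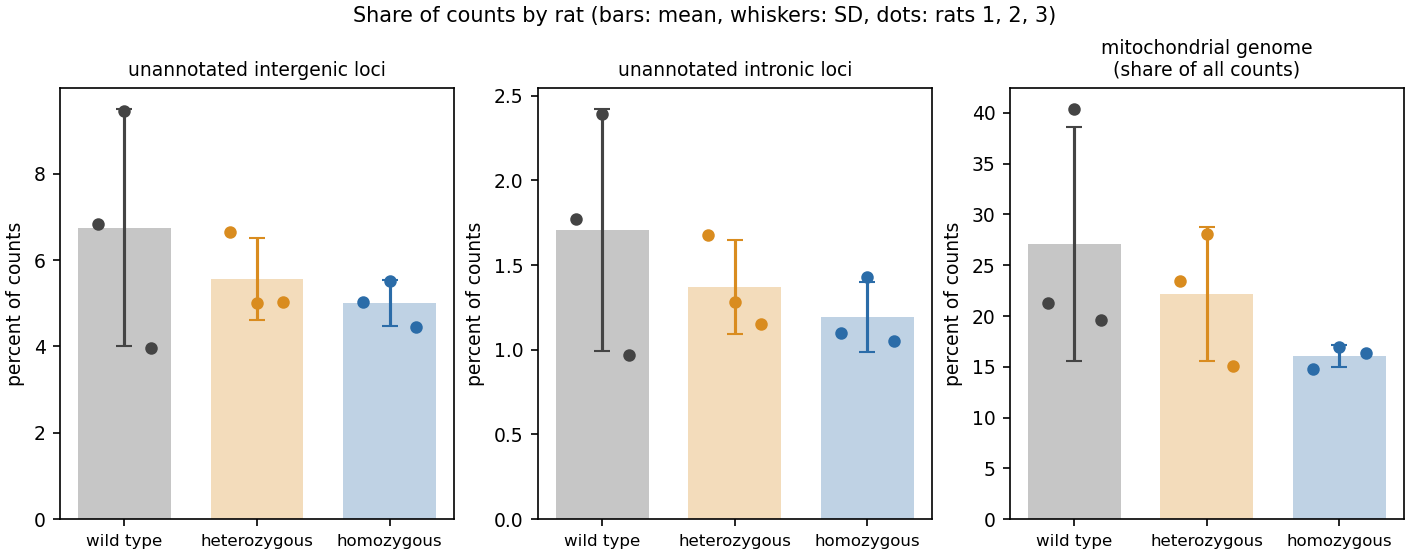
Percent of counts per rat (dots, rats 1, 2 and 3 from left to right), with bars for the mean and whiskers for the SD of each genotype. The panels give intergenic and intronic loci, both of the counts outside mitochondrial and the 10 most abundant loci, and mitochondrial loci of all counts, and in each panel wild-type rat 2 is the highest dot (9.46%, 2.39% and 40.4%).

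The spike-in pattern bore on the calls. With it as a covariate, a fit added after the data were seen, homozygous minus wild type rests on wild-type rat 2 against the 3 homozygous rats, and 229 intergenic loci (4.63%) passed edgeR's adjusted p of 0.05, 205 lower and 24 higher. In that fit 5.60% of all loci passed, 574 lower and 1614 higher. The median over the intergenic loci was -0.71, over all loci -0.11 and over the loci with a symbol 0.38. In the same fit heterozygous minus wild type, which rests on wild-type rats 1 and 3, gave 0 calls and a median of -0.02. Genotype, the spike-in pattern and the state of wild-type rat 2 cannot be told apart for the homozygous rats.

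Of the loci with the smallest p-values, MSTRG.33316 had many exons. It has 21 over chr15:3691977-3750035 (plus strand, 4290 exonic bp) and ends 575 bp upstream of Ndst2, an enzyme gene of heparan sulfate synthesis. It read 4.76, 10.7 and 4.62 CPM among the wild types, 4.49, 2.27 and 1.44 among the heterozygotes and 0.449, 1.22 and 1.14 among the homozygotes. All 3 homozygous rats were below the other 6. The homozygous minus wild-type difference was -2.53 on the log2 scale (SE 0.46), with an edgeR adjusted p of 0.380 and a range of 2.79e-05 to 0.817 over the alternatives. DESeq2 gave the lowest of these. GRCr8 lists Camk2g, which encodes the gamma subunit of calcium/calmodulin-dependent kinase II, between Plau and Ndst2, the neighbours of this locus. Ndst2 read 0, 3.64 and 3.83 CPM, then 3.24, 3.05 and 0, then 0 in all 3 homozygous rats, and how counts divide between the 2 loci was not tested.

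MSTRG.72922 (chr4:27759959-27760537, minus strand, a single exon of 579 bp, 4761 bp upstream of Fam133b) read 9.87, 11.3 and 6.72 CPM among the wild types, 2.87, 1.28 and 2.81 among the heterozygotes and 2.13, 1.60 and 3.52 among the homozygotes. All 3 wild-type rats were above all 6 mutants. The differences from wild type were -1.87 (SE 0.43) for heterozygous and -1.62 (SE 0.43) for homozygous rats, with edgeR adjusted p-values of 0.981 and 0.544 and a DESeq2 adjusted p of 0.0201 for the first. Fam133b read 9.48, 10.2 and 15.5 CPM, then 10.7, 12.7 and 8.21, then 7.46, 8.61 and 10.9, with overlap.

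MSTRG.34516 (chr15:33102491-33104552, plus strand), 4291 bp upstream of the receptor gene Lrp10, had higher values in the homozygous rats. It read 5.49, 4.36 and 3.55 CPM among the wild types, 5.68, 10.1 and 3.49 among the heterozygotes and 9.02, 7.57 and 7.26 among the homozygotes. The homozygous and wild-type rats did not overlap, and the difference was 1.13 on the log2 scale (SE 0.30), with an edgeR adjusted p of 0.544. MSTRG.74552 on chromosome 4 read 54.8, 89.4 and 56.6 CPM among the wild types, 138, 109 and 111 among the heterozygotes and 112, 80.5 and 77.7 among the homozygotes. Its heterozygous minus wild-type difference was 0.93 (SE 0.25), with an edgeR adjusted p of 0.981.

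The other 7 of the 10 loci with the smallest p between homozygous and wild-type rats all had negative fitted differences and an edgeR adjusted p of 0.544. They were MSTRG.34508 (-1.80 on the log2 scale), MSTRG.57586 (-1.32), MSTRG.99943 (-1.35), MSTRG.112527 (-1.21), MSTRG.58060 (-1.19), MSTRG.113223 (-1.10) and MSTRG.67783 (-0.93). All were single exons of 264 to 4810 bp. Between heterozygous and wild-type rats, MSTRG.25977 (-1.19), MSTRG.4631 (-0.95), MSTRG.21378 (-1.36), MSTRG.67484 (-1.26) and MSTRG.51646 (-1.30) were single exons of 386 to 703 bp, each with an edgeR adjusted p of 0.981. Between homozygous and heterozygous rats, MSTRG.56136 had a fitted log2 difference of 4.47 on values of 0.385, 0 and 0.0922 CPM in heterozygous and 6.57, 0.656 and 1.22 in homozygous rats, with an edgeR adjusted p of 1.000. Homozygous rat 1 held most of its counts, and only homozygous rats 1 and 3 were above 1 CPM. Of the 10 loci with the smallest p in this comparison, MSTRG.12547 (4.49) and MSTRG.69279 (0.95) also had positive differences. The others were negative: MSTRG.17406 (-1.76, the smallest p), MSTRG.33316 (-1.26), MSTRG.48723 (-1.17), MSTRG.112527 (-0.93), MSTRG.56698 (-0.92), MSTRG.42896 (-0.91) and MSTRG.81469 (-0.79).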

How the data were processed

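Total RNA of 9 rat brains, each a separate rat in the labels, was depleted of ribosomal RNA and sequenced as stranded paired reads, per the labels' protocols. The submitters' processing notes name cutadapt, HISAT2, StringTie, RSEM and the rn6 build, with tool versions and the use of strand in counting not given in the sources used here. From these steps the authors deposited, per locus, estimated counts (RSEM's expected counts) and TPM, and a merged transcript assembly. The deposited matrix matched the rats' own tables, with 0 differing values.

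Counts were rounded and tested with edgeR 4.0.16 (quasi-likelihood, filterByExpr, TMM scaling, 1 fit over 3 genotypes) in R 4.3.3, with Benjamini-Hochberg adjustment over 39057 loci and a threshold of 0.05. CPM is per library total without the 99 spike-in loci (2.50 to 4.81% of counts), which were kept out of tests. DESeq2 1.42.0 and limma 3.58.1 served as alternatives. Library totals of 27489383 to 46975919 set the precision of counting alone, and intervals cover counting error only. The genotype tests also rest on the spread between rats, with a common biological coefficient of variation of 0.277.

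The members and lists were chosen with earlier results of these data known. Loci named were those highest in counts, exon number, length, or spread (and lowest in spread), those present in some rats and absent from others, and those with the smallest p in each comparison. Sequences of the loci are not printed, since no rn6 genome was used here. Correlations of same-numbered rats' deviations ran from -0.11 to 0.27, and those of differently numbered rats from -0.38 to 0.28. Replicate numbers were therefore not taken to pair rats, though these values do not settle the question.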

Additional observations from a re-analysis of the deposited data

How the results depend on the processing

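Calls of intergenic loci at an adjusted p of 0.05 changed from 0 as follows. Apart from the shares over all loci given above, none is given for these fits. The calls are thus not a result about intergenic loci in particular. DESeq2 called 1 in homozygous minus wild type, 1 in heterozygous minus wild type and 2 for any difference. The fit of heterozygous and wild-type rats alone called 3. Leaving out each rat gave 0 to 3 calls in homozygous minus wild type (3 without homozygous rat 1), 0 to 3 in heterozygous minus wild type (1 without wild-type rat 1, 3 without homozygous rat 1, 1 without homozygous rat 2) and 0 to 3 for any difference (3 without homozygous rat 1). Adding the spike-in pattern to the fit, a choice made after seeing the data, gave 229, 0, 1 (homozygous minus heterozygous) and 7 (any) calls, and the homozygous minus heterozygous median was -0.71. With the replicate number as a block, homozygous minus heterozygous and any difference each had 1 call, and the medians were -0.32, -0.19 and -0.11. The numbers were not taken to pair the rats, and whether they do is not settled.

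The homozygous minus heterozygous median ran from -0.21 to 0.03 as each rat was left out, and was reversed to 0.03 without heterozygous rat 1. TMM factors from loci with a symbol gave medians of -0.56, -0.35 and -0.19, with all loci at -0.24, -0.13 and -0.07. Of 539 values of 30 named results, 523 stayed on their side of the threshold, 16 passed it and 0 changed sign.

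The number of loci was 8347 at a mean of 0.5 CPM, 2782 at 2 CPM, 8151 against the other total, 4696 by the median rat, and 4675 to 5068 without each rat. Presence in 1 genotype and absence in another held for 0 loci when absence needed 0 counts, and for 1 to 2 as each rat was left out. By rat it held for 32 loci at 0 counts and 68 at 0.2 CPM. Shares moved to 3.99% and 9.70% among the wild types, 3.53% and 8.37% among the heterozygotes and 5.0%, 3.36% and 11.4% among the homozygotes over other bases, the highest of each from TPM. Depth leaves loci near 1 CPM with few counts. The cause of these changes was not tested.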

Other observations

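The loci were spread over all chromosomes. Chromosome 1 held 542, which is 7.76% of its 6988 intergenic loci at any level, and chromosome 2 held 495. On the same base the shares were 10.6% on chromosome 11, 10.3% on chromosome 16, 6.08% on X and 8.42% on Y (8 of 95).

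Abundant structural RNAs that carry a symbol also varied between rats. Rn7sl1, RNA of the signal recognition particle, read 25191, 12227 and 30832 CPM among the wild types, 40036, 36001 and 36298 among the heterozygotes and 49598, 51162 and 41778 among the homozygotes, and the 3 homozygous rats were above the other 6. Rmrp, the RNA of RNase MRP, read 710, 444 and 914, then 1050, 1143 and 1146, then 2566, 1219 and 1545 CPM, with the 3 genotypes apart. MSTRG.82061 and MSTRG.67946 did not separate the genotypes in this way. The structural RNAs fell under none of the rules for naming loci, and no test of their differences is given. Their levels are scaled to the library total alone. The 3 homozygous rats shared a spike-in pattern with the wild-type rat that was lowest for both RNAs, so no conclusion on genotype is drawn from these values.

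MSTRG.12547 kept its all-or-none call by genotype whichever single rat was left out, and leaving out certain rats added a further locus. MSTRG.40503 read 2.55, 0 and 0 CPM among the wild types, 1.15, 2.22 and 1.26 among the heterozygotes and 0.830, 1.17 and 0.574 among the homozygotes, and would count as absent from wild-type rats without wild-type rat 1. MSTRG.26795 read 2.65, 6.02 and 1.12, then 0, 0.716 and 0.617, then 0.996, 0 and 0.0239 CPM, and would count as absent from homozygous rats without homozygous rat 1. Both were picked after their values were seen.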
